A study of Danio rerio with 54 samples.

Results

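The proteasome subunit genes are the rows of the deposited gene table whose symbol begins with psma, psmb, psmc, psmd, psme or psmf followed by a digit. The rule took 51 of 31953 rows. The study profiled pools of 30 zebrafish embryos by RNA sequencing, with 3 pools in each of 18 groups and 54 libraries in all. Wildtype embryos of the AB strain were set against embryos homozygous for a germline knockout of nfe2, which encodes a cap'n'collar transcription factor of the Nrf family. The knockout line is described as on the AB background, and it was made by injecting TALENs against exon 3 into AB/TL hybrid embryos, so genotype and strain background cannot be told apart. Embryos of each strain were kept in water, in 20 µM diquat, a redox-cycling herbicide, or in 1 mM tert-butyl hydroperoxide (tBOOH), an organic peroxide. Dosing began at 2, 48 or 96 hours post fertilisation (hpf), lasted 4 h and was followed by 4 h of recovery, per the protocol, so the stage names used below are the starts of dosing. The protocol's timing and the sample descriptions, which name the stages as sampling times, differ in this. The 8 gastrula and early segmentation markers summed to 89.1 to 163 in the water pools of the 2 hpf series and to at most 17.4 in those of later series.

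The 26S proteasome is the protease that degrades ubiquitin-tagged proteins. Its 20S core is a barrel of alpha rings, which gate the entrance, around beta rings, which carry the peptidase sites, and its 19S regulatory particle has a base with ATPases that unfold substrates and a lid that removes ubiquitin. Separate activators (PA28, encoded by psme1, psme2 and psme3, and PA200, encoded by psme4) can open the core without the 19S particle. In mammals Nrf1, another cap'n'collar factor, raises proteasome gene transcription when the proteasome is inhibited, and immune-type beta subunits replace the constitutive ones under interferon.

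By role, the 51 rows held 9 genes of the 20S alpha ring, 7 constitutive and 5 immune or MHC-linked genes of the beta ring, 7 ATPases and 4 other genes of the 19S base, 9 genes of the lid, 3 chaperones of 19S assembly, and 6 activators and inhibitors. The remaining row, psmc3ip, is matched by its name and encodes a partner of meiotic recombination, not a subunit. Values are the authors' normalised read counts, that is reads divided by a size factor of each library. Read counts per library, recovered from these values, ran from 0.527 to 1.04 M (M for 1e6 reads), with a median of 0.772 M, or 3.09% of the 25 M reads that the labels state for each sample. The libraries were directional, and no source used here states which strand HTSeq counted. The light-strand gene mt-nd6 stood above the median of the other 12 mitochondrial mRNAs in all 54 libraries and was the highest of the 13 in 44. Whether sense or opposite-strand reads were counted was not tested, so each level below is the number of reads counted for a gene, which may differ from its mRNA. In whole embryos, fewer cells of a type and less RNA per cell cannot be told apart. The 3 pools of a group are separate samples by their labels, and no label says that they came from separate clutches. The tests thus measure the spread between pools, with an estimate per gene that all groups of a fit share. That spread differed between groups: the chi-square per degree of freedom between libraries was 1.35 in wildtype tBOOH and 9.50 in knockout tBOOH of 48 hpf. An SE thus need not reflect the pools of the compared groups alone. The targeted gene nfe2 was at 8.43, 6.45 and 19.9 in the wildtype water pools of 2 hpf and at 23.9, 13.7 and 11.9 in those of the knockout, and was at most 4.39 in every library of 48 and 96 hpf. A TALEN mutation in exon 3 need not lower the read count, so these values do not check the genotype.

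Of the 51 members, 39, 40 and 40 passed the filter of a value of at least 10 in 3 or more libraries at 2, 48 and 96 hpf, and 41 passed it over all stages. The other 10 were never tested. They include all 5 immune or MHC-linked beta genes. The row named psmb10, which the reference names psmb13a, had 0 reads in 54 libraries, which allows a mean value of up to 0.0547 at 3 reads in all, for counting error only. The immunoproteasome genes psmb8a and psmb9a had 2 and 7 reads over all libraries, psmb12 had 2, and psmb11b, a thymus-type beta subunit in mammals, had 5. The lymphoid marker list was also low: its 5 genes (rag1, rag2, lck, ikzf1, ccr9a) summed to 7.50 to 11.5 in the wildtype water libraries of 96 hpf and to less in every other water library, and ccr9a had no read in wildtype water at any stage. The list of 10 leukocyte markers summed to 97.1 to 101 in the wildtype water libraries of 96 hpf, and each of its genes had reads there. A row spelled PSMB10 in capitals, which the rule leaves out, was measured at 16.7 ± 3.35 in wildtype and 32.3 ± 3.34 in knockout water pools of 2 hpf (mean ± SD, n = 3). Another pair of rows in capitals, PSMD2 and PSMD4, was left out in the same way. The other members that were never tested were psma6l, the chaperones psmd9 and psmd10, the PA28 subunit psme1 and psmf1, an inhibitor of the core, with highest single values between 9.73 and 15.1. The reads of psme1 were few (2.27 ± 0.27 in wildtype water at 96 hpf), while its PA28 partner psme2 was counted at 317 ± 37.3 there. The bounds of psme2 overlap those of lsm5 in the RefSeq annotation, and those of 14 members in all overlap another gene, psmd1 with htr2b, acap2b, ppp1r2 and an uncharacterised locus, psmd2 with alp3, psmd6 with slc2a9l1 and psmd7 with pkd1l2b among them. Without the strand setting, reads of such pairs cannot be told apart. The bounds of psmb8a, psmb9a and psmb12 overlap those of psmb13a, which is the reference name of the row named psmb10. Those of psmb8a also overlap psmb9a and psmb12. Overlaps were looked up by symbol, so the unnamed locus found for psmb10 lies at the RefSeq gene of that name. That gene need not be the one counted in this row. Whether such overlaps lowered the counts of these rows was not tested, so the counts do not show that the genes were silent. Reads of copies paired by name (psma6a and psma6b, psmc1a and psmc1b, psmd4a and psmd4b, psmd11a and psmd11b, psme4a and psme4b) may have been split. The likeness of their sequences was not tested.

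Over the 51 genes, the median normalised count of a wildtype water library was 38.9 ± 2.19 at 2 hpf, 48.9 ± 3.36 at 48 hpf and 29.8 ± 3.96 at 96 hpf (mean ± SD of 3 libraries). In knockout water libraries it was 33.5 ± 4.95, 41.4 ± 2.99 and 27.8 ± 2.61. The members together took 0.425% of the counts of a wildtype water library at 2 hpf, 0.496% at 48 hpf and 0.292% at 96 hpf. Without psme2, the member with the most reads, these shares were 0.308%, 0.398% and 0.25%. In knockout water libraries the shares were 0.441%, 0.407% and 0.251% with psme2, highest at 2 hpf, and 0.262%, 0.321% and 0.2% without it, highest at 48 hpf. The share was lowest at 96 hpf in both strains with and without psme2, whereas in the knockout the peak at 48 hpf was present only without it. The medians of oxidant libraries overlapped those of their water group, except for knockout tBOOH at 96 hpf (31.7 to 33.3 against 25.7 to 30.7). At 96 hpf the medians were 33.5 ± 0.33 in diquat and 36.9 ± 5.13 in tBOOH for wildtype, and 26.7 ± 4.39 and 32.5 ± 0.78 for the knockout. The share of counts with psme2 lay apart from water in some wildtype groups. At 48 hpf it was lower in diquat (0.429%) and tBOOH (0.423%). In diquat it was higher at 2 hpf (0.47%) and at 96 hpf (0.301%). Without psme2, the wildtype diquat shares at 48 and 96 hpf still lay apart from water. Those of wildtype tBOOH at 48 hpf and wildtype diquat at 2 hpf then overlapped water. The tBOOH shares at 96 hpf without psme2 lay above water without overlap in wildtype (0.288% against 0.25%) and in the knockout (0.244% against 0.2%).

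**Figure D1:**
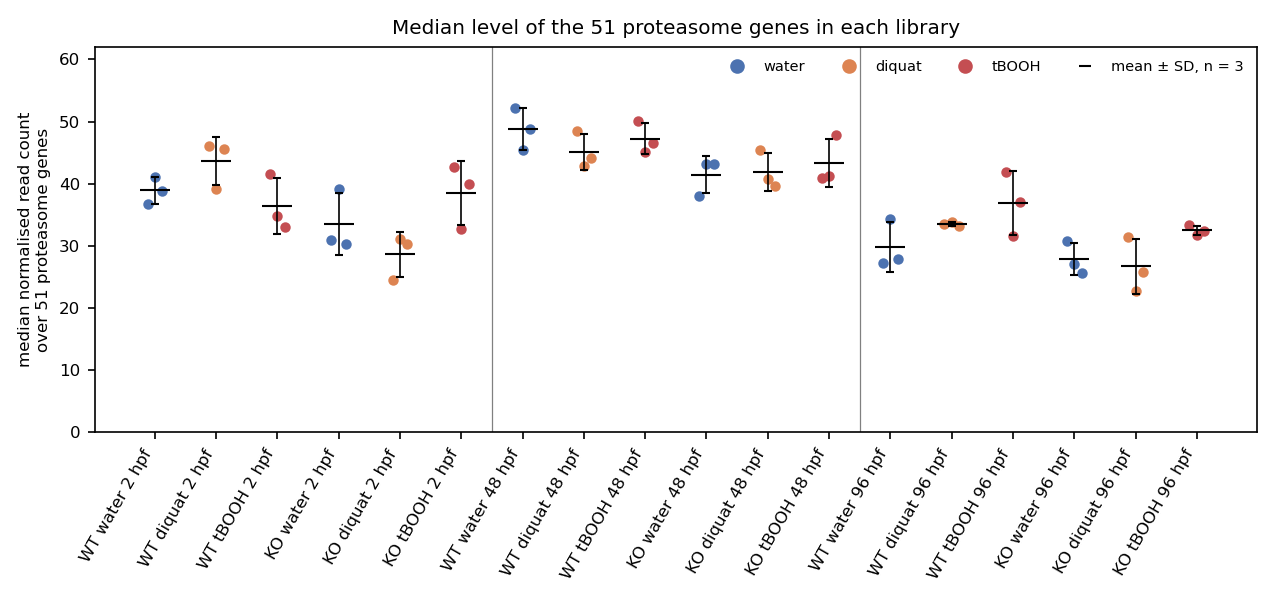
Median normalised read count over the 51 proteasome genes (y axis) in each library of the 18 groups (x axis); points are the 3 libraries and bars the mean ± SD. Wildtype water rose from 38.9 at 2 hpf to 48.9 at 48 hpf and lay at 29.8 at 96 hpf. From 2 to 48 hpf in wildtype water the median log2 change was 0.39 for the tested members and 0.39 for all genes.

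Between the 48 and 96 hpf water series most proteasome genes fell in wildtype embryos, in every part of the 26S particle, while the alpha subunit gene psma6b rose. The activator psme3, whose bounds overlap those of skap1, was called higher in wildtype only. The activator psme4a was called higher too, but it passed the filter only through its levels at 96 hpf. Of 41 members tested, 22 fell and 3 rose (limma, Benjamini-Hochberg adjusted p under 0.05 over 13205 genes), where 28% of all genes tested were called, 19.7% higher and 8.3% lower. The median log2 change of the members was -0.71 against 0.20 for all genes, and 36 of 41 members lay below zero. In the knockout 13 fell and 2 rose, with a median of -0.52 against 0.15 for all genes, where 19.7% of genes were called, 14% higher and 5.66% lower. Among those 13 was psmd5, which within a single stage passed the filter only at 48 hpf, so its call follows in part from the filter. With TMM factors 23 fell and 2 rose in the knockout, and with edgeR 25 fell and 2 rose. The wildtype and knockout steps use separate libraries. The members called lower in both were 11 genes, 50% of the wildtype list and 84.6% of the knockout list: the alpha ring genes psma5 and psma8, the beta ring genes psmb1, psmb4, psmb5 and psmb7, the ATPases psmc1a and psmc3, and the lid genes psmd8, psmd11b and psmd13. Those called higher in both were psma6b and psme4a, 66.7% and 100% of the lists. The genes called in both strains were not counted over all genes, so nothing is read from these shares.

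The beta subunit with chymotrypsin-like activity, psmb5, was counted at 66.5, 90.9 and 80.4 in the wildtype water pools of 48 hpf and at 27.2, 28.4 and 36.4 in those of 96 hpf. The stages did not overlap, and the log2 change was -1.34 ± 0.19 (SE, adjusted p = 8.95e-08, limma). In the knockout the pools read 69.1, 67.5 and 65.6, then 46.1, 31.3 and 34.6, a log2 change of -0.85 ± 0.19 (adjusted p = 0.000548, limma). The alpha ring gene psma4 was at 44.6, 38.1 and 38.1, then at 13.6, 18.1 and 10.7 in wildtype, the largest fall of the members tested there (log2 change -1.47 ± 0.24, adjusted p = 3.19e-06, limma). In the knockout psma4 went from 31.3 ± 1.17 to 21.1 ± 6.64 and was not called. The lid gene psmd7 was at 59.8, 86.5 and 58.8, then at 23.1, 30.9 and 25.7 in wildtype (log2 change -1.32 ± 0.23, adjusted p = 1.38e-05, limma). Its overlapping neighbour pkd1l2b fell as well (log2 change -1.14 ± 0.17, adjusted p = 4.26e-07, limma), and the part of either gene's reads in the other was not tested. The beta gene psmb4 was at 75.8, 73.3 and 74.6, then at 40.9, 41.3 and 32.1 in wildtype (-0.96 ± 0.19, adjusted p = 6.81e-05, limma). In the knockout psmb1, which like psmb4 carries no peptidase site, was at 46.7, 61.0 and 49.6, then at 26.3, 32.4 and 23.4, and psmb7, the trypsin-like subunit, at 77.9, 78.1 and 62.4, then at 54.9, 34.5 and 37.9 (log2 changes -0.92 ± 0.20 and -0.79 ± 0.20, adjusted p = 0.000636 and 0.00259, limma). None of these pairs of groups overlapped. The neighbour nrxn1b of psmb1 was not called in the knockout (1.1 ± 0.46, adjusted p = 0.0876, limma). All 9 lid genes and all 7 constitutive beta genes lay below zero in both strains. In wildtype 5 of 9 lid genes, 5 of 7 beta genes, 4 of 8 alpha genes, 4 of 7 ATPases and 3 of 4 non-ATPase base genes fell, and in the knockout these counts were 3, 4, 3, 2 and 0.

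The ATPase gene psmc1a, whose product sits in the ring that drives substrates into the core, rose and then fell. Its wildtype water pools read 86.6, 58.1 and 65.6 at 2 hpf, 213, 230 and 210 at 48 hpf, and 126, 132 and 117 at 96 hpf. The knockout pools read 68.3, 63.8 and 70.7, then 153, 190 and 181, then 77.9, 76.2 and 88.1. No pool of 48 hpf overlapped those of the stages beside it in either strain. The log2 changes were 1.64 ± 0.17 and -0.80 ± 0.17 in wildtype and 1.35 ± 0.17 and -1.1 ± 0.17 in the knockout (adjusted p = 3.04e-12, 0.000163, 8.73e-10 and 1.16e-06, limma). The successive steps share the 48 hpf water libraries.

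The PA200 gene psme4a rose in this step. It was near or at 0 in every library of 2 hpf, at 2.44 ± 0.93 in wildtype water at 48 hpf, and at 14.5 ± 2.00 at 96 hpf (log2 change 2.21 ± 0.56, adjusted p = 0.00193, limma). In the knockout it went from 3.62 ± 2.51 to 12.6 ± 2.66 (log2 change 1.67 ± 0.56, adjusted p = 0.0276, limma). Since it passed the filter only through its levels at 96 hpf, its calls between stages follow in part from the filter. Its paralogue psme4b did not pass the test in this step in either strain. The alpha subunit gene psma6b rose from 93.4, 141 and 76.2 to 211, 197 and 233 in wildtype (log2 change 1.08 ± 0.26, adjusted p = 0.00115, limma), and in the knockout from 102 ± 1.24 to 197 ± 38.1 (log2 change 0.93 ± 0.26, adjusted p = 0.00814, limma). Its paralogue psma6a was at 36.3 ± 8.19 and 21.0 ± 3.50 in wildtype and was not called. The nuclear PA28 gene psme3 rose in wildtype (61.4 ± 13.8 to 89.3 ± 9.57, log2 change 0.56 ± 0.20, adjusted p = 0.0309, limma) as its overlapping neighbour skap1 fell (-1.04 ± 0.23, adjusted p = 0.000281, limma), while psme2 fell (699 ± 288 to 317 ± 37.3, log2 change -1.07 ± 0.24, adjusted p = 0.00048, limma). The neighbour lsm5 went the other way from psme2 (log2 change 0.79 ± 0.22, adjusted p = 0.00486, limma). For psme3 and skap1, as for psme2 and lsm5, the part of either gene's reads in the other was not tested.

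The earlier step, from 2 to 48 hpf, divided the members. In wildtype 13 rose and 1 fell of 41, with a median log2 change of 0.39 for the members and 0.39 for all genes, where 58.4% of all genes were called, 38.3% higher and 20.2% lower. In the knockout 12 rose and 4 fell, with 0.30 against 0.41, where 57.8% of genes were called, 38.9% higher and 18.9% lower. The members' share of calls was thus below that of all genes in both strains. After rescaling with TMM factors the knockout split was 8 higher and 6 lower. The base ATPases were positive in 7 of 7 cases in both strains, with 3 called in wildtype and 5 in the knockout, whereas 0 of 8 alpha ring genes rose in wildtype and 1 in the knockout. The genes that rose in both strains were psmc1a, psmc3, psmc4 and psmd3. The base chaperone psmd5 and psme4a were called higher in both too, but within a single stage psmd5 passed the filter only at 48 hpf and psme4a only at 96 hpf, so these calls follow in part from the filter. The values of psmd5 were low throughout (1.61 ± 0.78 to 9.90 ± 4.13 in wildtype), and psme4a had 0 reads in the 3 knockout water pools of 2 hpf, so no fold is given for it. The ATPase psmc4 was at 85.0, 71.0 and 60.5, then at 129, 113 and 119 in wildtype, and at 42.9, 55.6 and 34.0, then at 76.9, 111 and 91.2 in the knockout (log2 changes 0.74 ± 0.20 and 1.07 ± 0.20, adjusted p = 0.00139 and 9.55e-06, limma). In the knockout psmc5 rose from 35.9, 38.3 and 30.3 to 45.8, 137 and 87.2 (1.22 ± 0.27, adjusted p = 0.00011, limma), and psme2 fell from 1342, 1156 and 1492 to 765, 459 and 599 (-1.15 ± 0.24, adjusted p = 5.51e-05, limma). None of these groups overlapped. In wildtype psmd4a, a ubiquitin receptor gene, rose from 18.2 ± 4.56 to 40.8 ± 4.30 (log2 change 1.14 ± 0.26, adjusted p = 0.000242, limma). The recombination gene psmc3ip fell in both strains, from 32.3 ± 6.53 to 11.2 ± 1.1 in wildtype (log2 change -1.43 ± 0.33, adjusted p = 0.000206, limma) and from 41.5 ± 19.9 to 16.0 ± 4.86 in the knockout (log2 change -1.25 ± 0.33, adjusted p = 0.00106, limma). Its overlapping neighbour mlx fell as well (-1.17 ± 0.29, adjusted p = 0.00044, and -1.83 ± 0.29, adjusted p = 2.82e-07, limma), and the part of either gene's reads in the other was not tested.

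**Figure D2:**
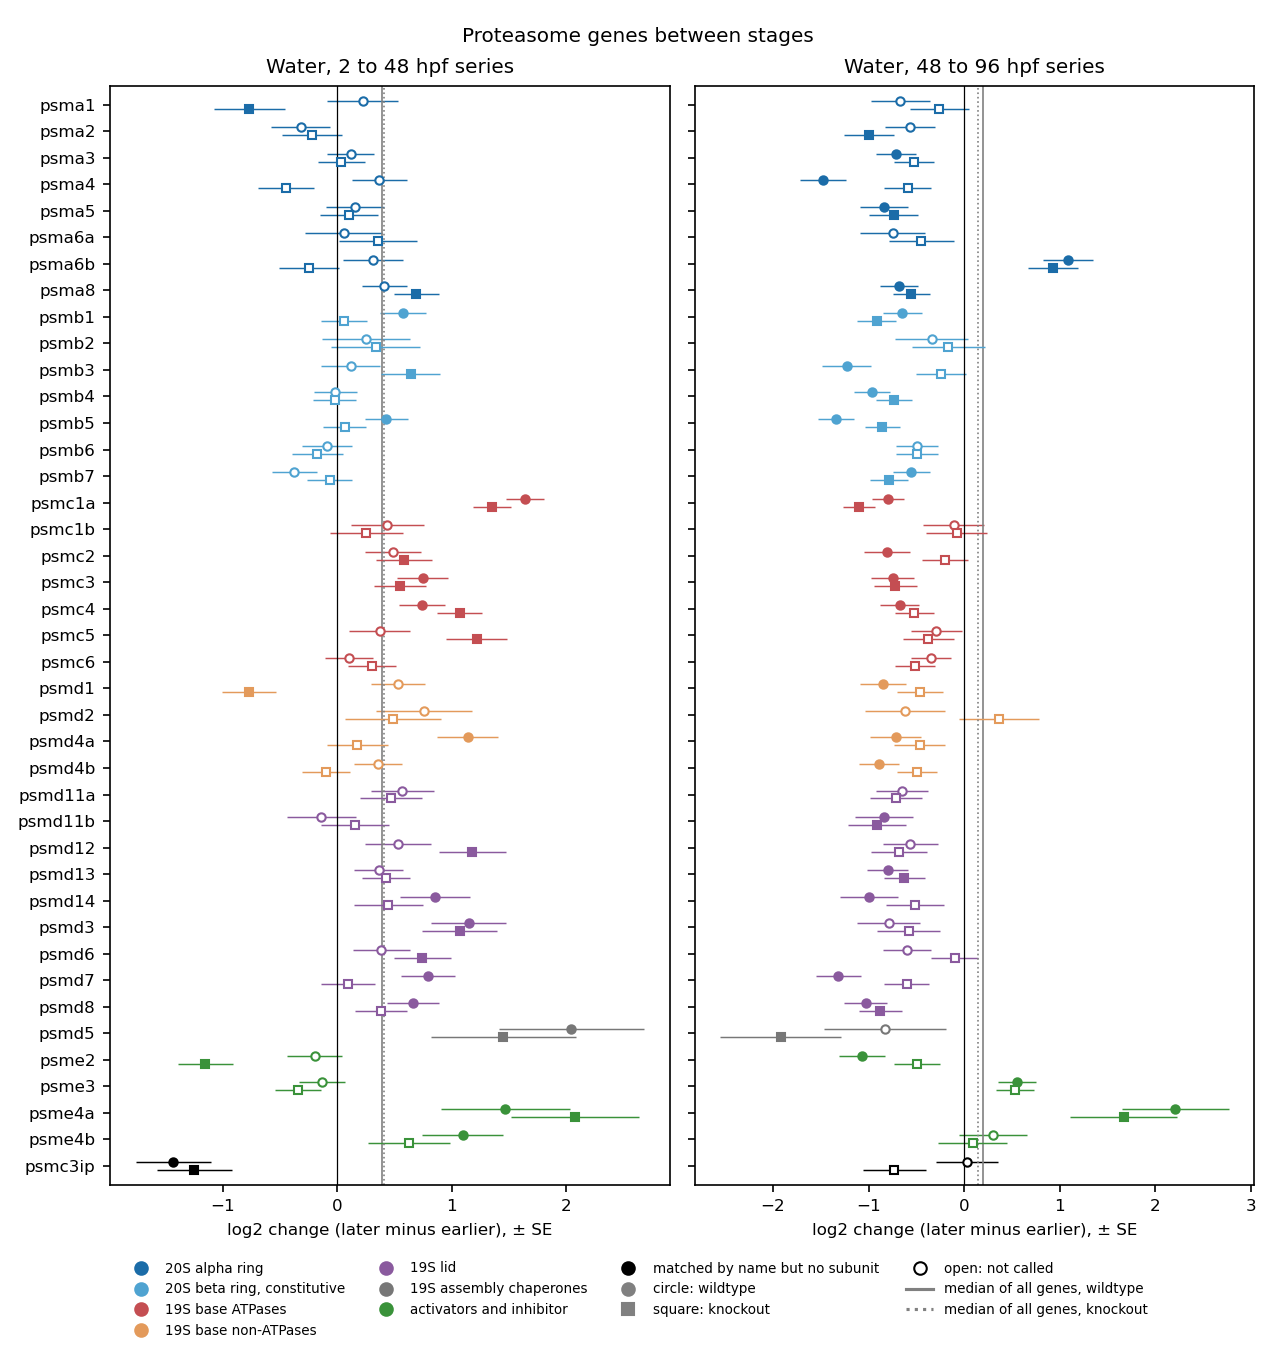
Log2 change ± SE (x axes) of each of the 41 tested members (y axis, grouped by role) between neighbouring stages in water, wildtype as circles and knockout as squares, filled where called; grey lines are the medians of all genes. In the step from 48 to 96 hpf 36 of 41 members lay below zero in each strain.

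Genes that assemble or serve the proteasome were set beside the members as a list of 19, of which 16 were matched and 14 tested over all stages. From 48 to 96 hpf in wildtype 4 of the 14 were called, a share near the 28% of all genes, so nothing is read from the count. Of these, 3 fell and 1 rose: pomp, the maturation factor of the core (log2 change -1.11 ± 0.39), usp14, a deubiquitinase bound to the 19S particle (-0.89 ± 0.27), and shfm1, a small lid protein (-0.80 ± 0.19), fell, and the ubiquitin shuttle gene rad23aa rose (0.92 ± 0.36). In the knockout, where 19.7% of all genes were called, 5 of 14 were: 4 fell (akirin2, ubqln4, shfm1 and rad23b) and rad23ab rose. Over this step the summed markers of some tissues also moved. The summed liver and pancreas markers were at 55.5 to 119 in wildtype water pools of 48 hpf and at 680 to 795 in those of 96 hpf, and at 72.8 to 114 and 157 to 162 in the knockout. The summed muscle markers were at 6533 to 7471 and 8218 to 8969 in wildtype, and at 1804 to 7005 and 8597 to 10270 in the knockout. The summed epidermis markers fell without overlap in both strains. They were at 7109 to 8690 and 5111 to 5223 in wildtype, and at 6332 to 8876 and 3729 to 4502 in the knockout. The part of these tissues in the members' changes was not tested.

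Under the oxidants few members changed. Over the 12 comparisons of an oxidant with water, 3 held a called member and there were 6 calls of 4 genes: psme4a, psma6b, psmc3ip and psmd11a. At 96 hpf tBOOH raised psme4a in both strains. Its wildtype water pools read 16.8, 12.9 and 13.9, and the tBOOH pools 52.9, 31.6 and 46.6. The groups did not overlap, and the log2 change was 1.5 ± 0.29 (adjusted p = 0.00253, limma). In the knockout the water pools read 11, 15.7 and 11.2 and the tBOOH pools 43.9, 62.3 and 68.1, again without overlap (log2 change 2.11 ± 0.29, adjusted p = 7.63e-06, limma). Over the 13 alternatives of each comparison the adjusted p of psme4a ran from 4.33e-05 to 0.0362 in wildtype and from 1.56e-07 to 0.0002 in the knockout, so the call held in each. Diquat at the same stage left psme4a at 8.37 to 16.5 in wildtype and 11.9 to 16.2 in the knockout.

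The other gene called at 96 hpf was psma6b, in the knockout. Its knockout water pools read 235, 159 and 199, and the tBOOH pools 691, 349 and 359 (log2 change 1.18 ± 0.24, adjusted p = 0.00141, limma). All 3 tBOOH pools lay above all 3 water pools, and 1 lay far above the other two. Without that pool, replicate 1, the log2 change was 0.86 (adjusted p = 0.0204, limma). In wildtype the water pools read 211, 197 and 233 and the tBOOH pools 325, 228 and 282, which overlapped, and the change was not called (log2 change 0.37 ± 0.24, adjusted p = 0.633, limma). The difference between the strains in the tBOOH response was called for no member at 96 hpf, where 0.324% of all genes were called, with log2 differences of 0.81 ± 0.34 for psma6b (adjusted p = 0.654, limma) and 0.61 ± 0.41 for psme4a (adjusted p = 0.899, limma). For diquat it was called for no member either, at 0.00874% of all genes. Before adjustment 1 member was under 0.05 for diquat and 3 for tBOOH, and edgeR and DESeq2 made no call in either.

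No other member passed the test under an oxidant at 96 hpf. In wildtype tBOOH 1 of 40 members was called (2.5%), where 2.3% of all genes were called, 1.53% higher and 0.769% lower. In the knockout 2 of 40 were called (5%), where 7.49% of all genes were, 5.46% higher and 2.04% lower, so the members' shares were near or below the background. The median log2 change of the members was 0.23 in wildtype and 0.13 in the knockout against 0.003 and -0.0018 for all genes, with 32 and 26 of 40 members above zero. Diquat called 0 of 40 members in either strain, where 0.245% and 0.315% of all genes were called. At an unadjusted p under 0.05, 1 member passed in wildtype diquat and 3 in knockout diquat, and the count called was 0 with edgeR and with DESeq2. The nearest in wildtype was the alpha gene psma4, at 13.6, 18.1 and 10.7 in water and at 24.1, 33.9 and 19.7 in diquat (log2 change 0.82 ± 0.31, adjusted p = 0.734, limma), which did not overlap. In the knockout it was psma3, at 50.5, 42.8 and 45.7 and at 49.7, 77.0 and 76.6, which overlapped (0.51 ± 0.22, adjusted p = 0.454, limma). Genes beside the proteasome moved in the same tBOOH libraries: sqstm1, a receptor for ubiquitinated cargo in autophagy, rose in wildtype (log2 change 1.22 ± 0.22, adjusted p = 0.00131, limma) and in the knockout (2.56 ± 0.22, adjusted p = 1.61e-09, limma), and the polyubiquitin gene ubb in the knockout (1.86 ± 0.43, adjusted p = 0.00505, limma). Among 17 regulators listed, nfe2l1a, a zebrafish Nrf1 gene, rose in knockout tBOOH (log2 change 2.03 ± 0.42, adjusted p = 0.00149, limma), as did maff (1.29 ± 0.29) and nfe2l2a (0.82 ± 0.20), and none was called in wildtype tBOOH. The epidermal keratin genes krt5 and krt4 fell with tBOOH in both strains (krt5 log2 change -1.01 ± 0.16 in wildtype and -1.16 ± 0.16 in the knockout). Other tissue lists moved in the same libraries without overlap. The summed liver and pancreas markers went from 680 to 795 in wildtype water down to 405 to 608 in tBOOH, and from 157 to 162 in knockout water up to 228 to 421. The summed muscle markers went from 8597 to 10270.4 in knockout water up to 10387 to 11759 in tBOOH. In wildtype the muscle sums overlapped, at 8218 to 8969 in water and 7918 to 8843 in tBOOH. In diquat the liver and pancreas sum was at 419 to 488 in wildtype and at 147 to 364 in the knockout, where it overlapped water. The part of a change in cell makeup in the psme4a and psma6b values was not tested.

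At 2 hpf the oxidant comparisons gave 3 calls, all in knockout embryos under diquat, of 39 members (7.69%), where 3.74% of all genes were called, 3.11% higher and 0.63% lower. There psma6b was at 120, 85.7 and 174 in water and at 219, 195 and 286 in diquat (log2 change 0.92 ± 0.24, adjusted p = 0.0394, limma). The gene psmc3ip was at 39.4, 22.8 and 62.4 and then at 85.2, 58.4 and 84.0 (0.95 ± 0.27, adjusted p = 0.0448, limma), with overlapping groups. The lid scaffold gene psmd11a was at 43.6, 51.9 and 35.8 and then at 21.0, 29.2 and 15.1 (-1.01 ± 0.29, adjusted p = 0.0475, limma). The neighbour mlx of psmc3ip moved the same way without a call (0.69 ± 0.20, adjusted p = 0.0541, limma). The summed leukocyte markers were at 109.4 to 157.0 in knockout water and at 159 to 218 in diquat, and their part in the 3 calls was not tested. Of the 10 genes in this list, cxcr3.2, lyz and mfap4 had no read in knockout water. In knockout diquat lyz, mfap4, mpeg1.1 and mpx had none, so the sums rest on the other genes. These calls stood close to the threshold: the count was 0 with TMM factors, without a filter on low values, with the 2 compared groups fitted alone and with edgeR, and 0 without water replicate 1, without water replicate 2 or without diquat replicate 3. Wildtype diquat called 0 of 39, where 0.964% of all genes were called; 2 members were under 0.05 before adjustment, neither edgeR nor DESeq2 called any, and wildtype psma6b was at 91.2, 66.4 and 80.4 in it. The nearest, psma2, was at 52.1, 54.1 and 52.7 in water and at 78.8, 69.6 and 66.5 in diquat, without overlap (0.43 ± 0.19, adjusted p = 0.448, limma). Knockout tBOOH called 0 of 39 members and 0% of all genes, with 3 members under 0.05 before adjustment, and neither count test called any. The nearest, psma8, was at 73.9, 83.8 and 49.6 in knockout water and at 125, 92.5 and 113 in tBOOH, without overlap (log2 change 0.69 ± 0.21, adjusted p = 0.653, limma). The strain difference in the diquat response was called for no member, where 0.938% of all genes were called, with 0.95 ± 0.34 on the log2 scale for psma6b (adjusted p = 0.211, limma) and -1.43 ± 0.41 for psmd11a, the nearest (adjusted p = 0.097, limma); 6 members were under 0.05 before adjustment, and edgeR and DESeq2 made no call.

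In wildtype embryos under tBOOH at 2 hpf 0 of 39 members were called, where 2.83% of all genes were called, and 9 had an unadjusted p under 0.05. The ATPase psmc3 came nearest: its water pools read 129, 119 and 102 and its tBOOH pools 84.6, 77.5 and 70.0, with no overlap (log2 change -0.58 ± 0.17, adjusted p = 0.0515, limma), and its adjusted p ran from 0.025 to 0.244 over the 13 alternatives. All 7 ATPases lay below zero there, with a median log2 change of -0.42, against 0.03 for all genes and 0.18 for the alpha ring. Other settings called up to 5 members of this comparison, and without tBOOH replicate 1 the count was 5. In the knockout, tBOOH gave the ATPases a median of 0.22 with 6 of 7 above zero. The tBOOH comparisons of both strains share their water libraries with the strain difference in water at 2 hpf. The strain difference in the tBOOH response at 2 hpf was called for no member (0.0128% of all genes), with psma8 nearest (log2 difference 1.17, adjusted p = 0.0776, limma). There 8 members were under 0.05 before adjustment, DESeq2 called 1 and edgeR called 0.

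At 48 hpf no member was called under either oxidant in either strain, of 40 tested. All genes were called at 0.0411% for wildtype diquat, 0.165% for wildtype tBOOH, 0% for knockout diquat and 0.195% for knockout tBOOH, so few genes of any kind passed at this stage. At an unadjusted p under 0.05, 3, 2, 4 and 2 members passed, and neither of the count tests called any. The members' medians were -0.13, -0.15, -0.05 and -0.03. The nearest in wildtype diquat was psmd7, at 59.8, 86.5 and 58.8 in water and at 48.4, 37.0 and 45.1 in diquat (log2 change -0.63 ± 0.19, adjusted p = 0.692, limma). In wildtype tBOOH it was psmb5, at 66.5, 90.9 and 80.4 in water and at 56.8, 55.5 and 55.0 in tBOOH (-0.49 ± 0.17, adjusted p = 0.452, limma). In the knockout the nearest were psmc3ip in diquat, at 21.4, 14.6 and 12 in water and 6.98, 9.74 and 4.72 in diquat (-1.07 ± 0.33, adjusted p = 0.98, limma), and psmd2 in tBOOH, at 1.95, 22.8 and 20.0 and at 21.8, 35.4 and 36.9 (1.47 ± 0.49, adjusted p = 0.531, limma). The groups overlapped for psmd2 alone of these 4 genes. The strain differences in response were called for no member and for 0% of all genes at 48 hpf, with 1 member for diquat and 2 for tBOOH under 0.05 before adjustment and no call by edgeR or DESeq2. In 8 comparisons of a response between neighbouring stages, chosen after the data were seen, 0 of 41 members were called. All genes were called there at 0.295% and 0.174% for the wildtype diquat and tBOOH responses of 48 against 2 hpf, at 0.00757% and 0.204% for those of 96 against 48 hpf, and at 0%, 0.0984%, 0.0227% and 0.689% for the knockout responses in the same order. The smallest adjusted p was 0.0745, for psmb5 in the wildtype tBOOH response of 96 against 48 hpf (log2 difference 1.06 ± 0.26, limma). Between 3 and 8 members had an unadjusted p under 0.05 in each of the 8, and edgeR called 0 in each while DESeq2 called 2 in the wildtype tBOOH response of 48 against 2 hpf. A p that misses the threshold does not show that responses were alike.

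**Figure D3:**
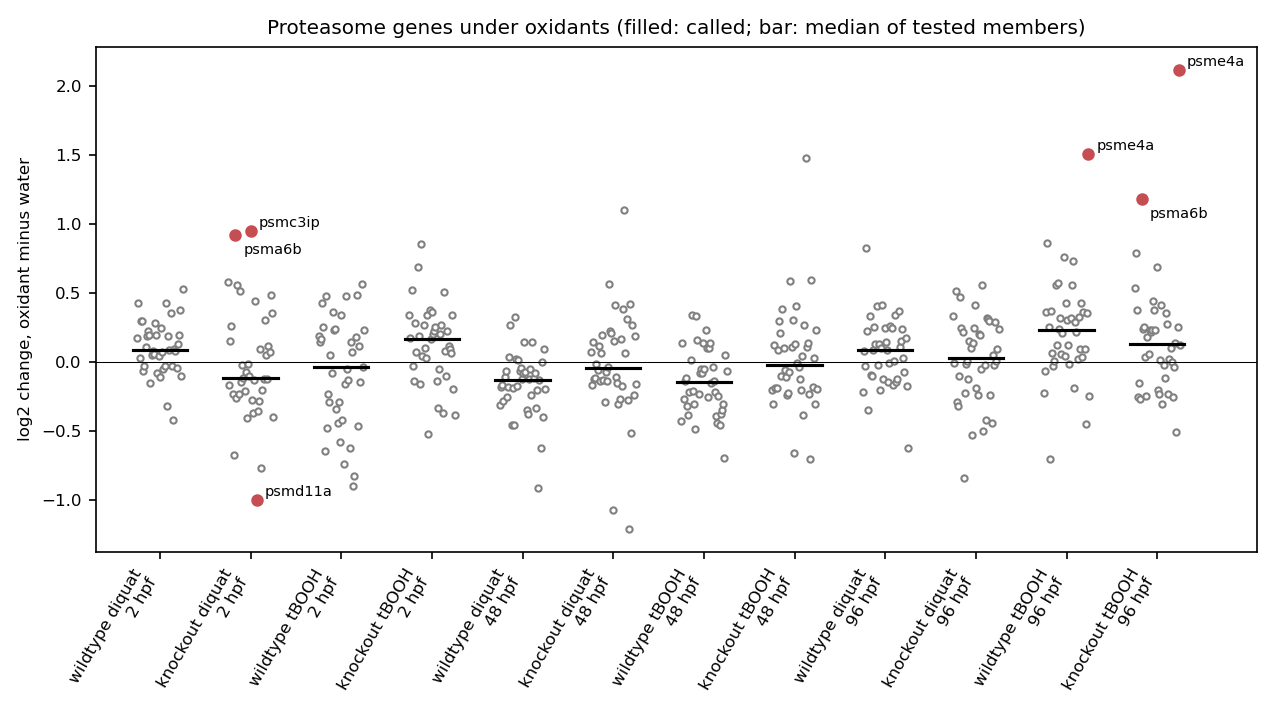
Log2 change of every tested member (points, y axis) in each of the 12 comparisons of an oxidant with water (x axis); filled points were called and bars are medians of the tested members. The 6 calls are of psme4a, psma6b, psmc3ip and psmd11a.

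**Figure D4:**
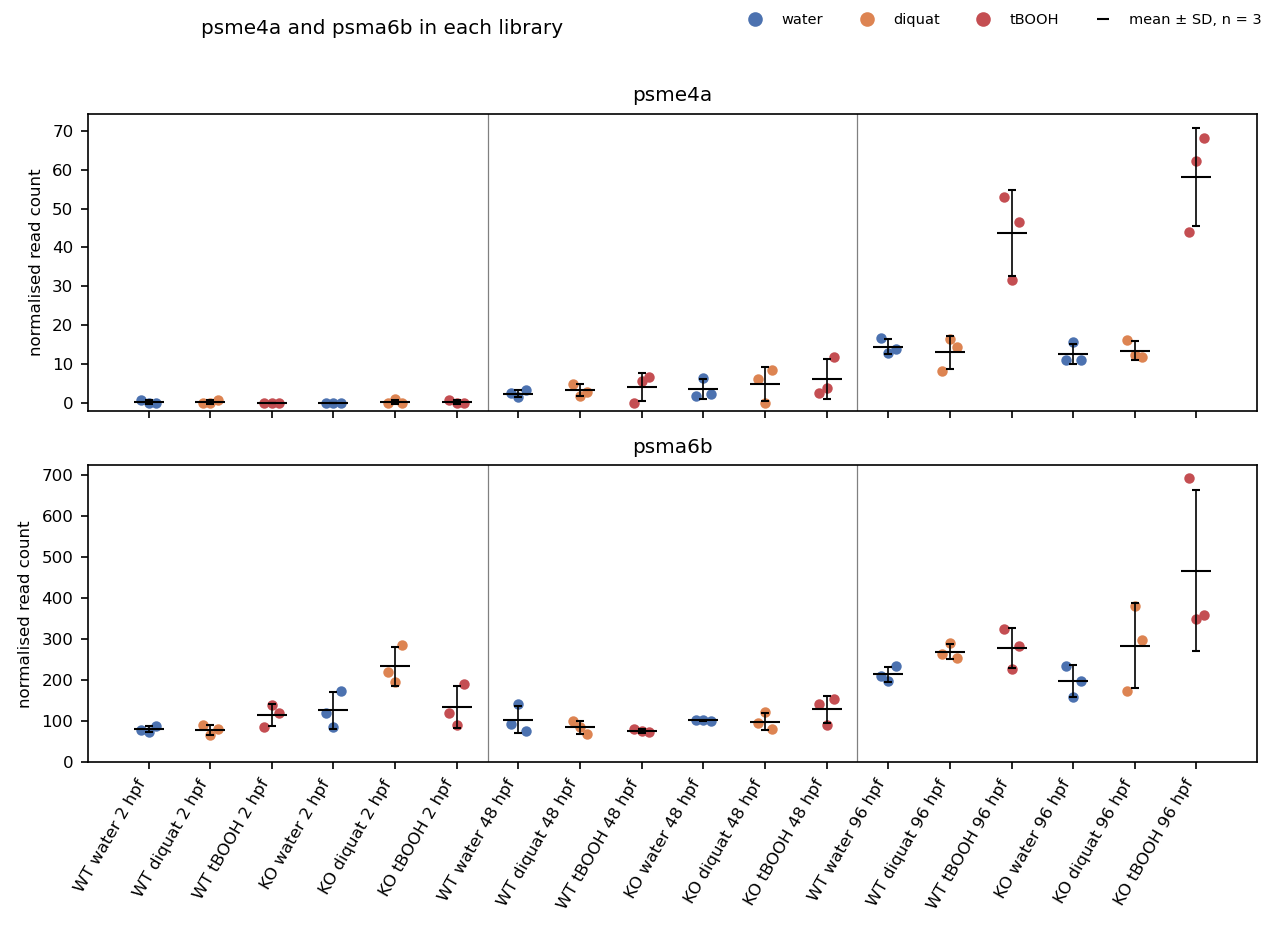
Normalised read counts (y axes) of psme4a and psma6b in each library of the 18 groups (x axis), coloured by treatment, with mean ± SD of 3 libraries. In tBOOH at 96 hpf psme4a was at 31.6 to 52.9 in wildtype and 43.9 to 68.1 in the knockout, above every other group.

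Between the strains in water, the count of members called was highest at 2 hpf, where 11 were lower and 2 higher in the knockout, of 39 tested (33.3%). Since 31.3% of all 7783 genes were called there, 15.9% higher and 15.4% lower, the share of members called was near the background. Their direction was uneven: the median log2 difference was -0.16 for the members and -0.02 for all genes. The members' median was larger in size at 48 hpf (-0.29, against 0.01 for all genes) and at 96 hpf (-0.20, against 0.04). The 4 ATPases psmc2, psmc3, psmc4 and psmc5 were lower, and all 7 ATPases lay below zero with a median of -0.58. The gene psmc5 was at 82.0, 111 and 70.0 in wildtype and at 35.9, 38.3 and 30.3 in the knockout (log2 difference -1.29 ± 0.23, adjusted p = 0.000122, limma). The scaffold gene psmd2 was at 20.7, 21.8 and 24.2 and at 12, 10.02 and 2.75 (-1.51 ± 0.37, adjusted p = 0.00253, limma). The alpha genes psma6a and psma8, the beta genes psmb3 and psmb4 and the lid genes psmd6 and psmd12 were lower too, by log2 differences from -1.16 to -0.46. The strains did not overlap for psmc5 and psmd2. The separate row named PSMD2 in capitals, left out by the rule, was at 36.8, 42.8 and 31.1 in wildtype and at 40.1, 31.0 and 56.9 in the knockout, which overlapped, and whether reads were split between these rows was not tested. The calls of psmb4, psmc3 and psmc2 were lost in 10, 5 and 4 of 13 alternatives, while those of psmc5, psmd2, psmd6 and psmb3 held in all 13. Without knockout water replicate 3 the count was 7, of which 5 were lower and 2 higher.

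The 2 members that were higher in the knockout at 2 hpf were psmd1 and psme2. The base scaffold gene psmd1 was at 88.1, 101 and 107 in wildtype and at 248, 174 and 359 in the knockout (log2 difference 1.33 ± 0.22, adjusted p = 4.19e-05, limma). The activator gene psme2 was at 653, 723 and 928 and at 1342, 1156 and 1492 (0.80 ± 0.18, adjusted p = 0.00119, limma). Neither pair of groups overlapped, and both calls held in all 13 alternatives. Both genes overlap others in the annotation. The neighbour lsm5 of psme2 was higher in the knockout as well (0.58 ± 0.19, adjusted p = 0.0201, limma), and ppp1r2, beside psmd1, was not called (-0.07 ± 0.41). Another neighbour of psmd1, htr2b, was too low to be tested, at 0, 2.42 and 2.59 in wildtype and at 2.11, 5.47 and 7.34 in the knockout. The values of acap2b and the uncharacterised locus beside psmd1 were not examined. At 96 hpf psme2 and psmd1 were not called, and psme2 stood at 317 ± 37.3 in wildtype and 424 ± 41.3 in the knockout. From the list of assembly factors, pomp (0.97 ± 0.37, adjusted p = 0.0449, limma) and shfm1 (0.54 ± 0.16, adjusted p = 0.00916, limma) were higher in the knockout at 2 hpf, and of the ubiquitin list vcp, the segregase ATPase, was lower (-0.75 ± 0.17, adjusted p = 0.00159, limma). The summed gastrula and early segmentation markers were at 133 to 163 in wildtype and at 89.1 to 111 in knockout water pools of 2 hpf, without overlap, with her1 and ta called lower. Other lists separated the strains there as well: the leukocyte markers summed to 74.3 to 108.8 in wildtype and 109.4 to 157.0 in the knockout, the liver and pancreas markers to 113 to 135 and 88.4 to 101, and the germ cell markers to 14.5 to 22.2 and 8.20 to 13.4. Of the 10 leukocyte genes, mfap4, mpeg1.1 and ptprc had no read in wildtype water. In knockout water cxcr3.2, lyz and mfap4 had none. Of the 6 liver and pancreas rows, 2 had no read in the water pools of each strain. These sums thus rest on the other genes of the lists, and whether those mark the named cell types at this stage was not tested. The part of stage or cell makeup in the members' differences was not tested.

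At 48 hpf 0 of 40 members were called between the strains, where 2.49% of all genes were, although 33 of 40 lay below zero and 12 had an unadjusted p under 0.05. DESeq2 called 1 and edgeR called 0. The nearest was psmd2, at 36.2, 44.0 and 34.8 in wildtype and 1.95, 22.8 and 20.0 in the knockout, where replicate 1 lay far below the other two (log2 difference -1.78 ± 0.49, adjusted p = 0.0611, limma). Without knockout water replicate 2 the fit called 6 members, all lower. In replicate 1 of that group psmc3 was at 86.7 and psmc5 at 45.8, against 122 to 172 and 87.2 to 137 in the others. The summed muscle markers ran from 1804 to 7005 in this group against 6533 to 7471 in wildtype, and the leukocyte markers from 63.2 to 78.1 against 92.6 to 119, and their part in the members' values was not tested.

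At 96 hpf 3 of 40 members were lower in the knockout and 0 higher (7.5%), where 23% of all genes were called, 9.92% higher and 13.1% lower. All 3 were ATPases. The gene psmc1a was at 126, 132 and 117 in wildtype and at 77.9, 76.2 and 88.1 in the knockout (log2 difference -0.62 ± 0.18, adjusted p = 0.0119, limma). The gene psmc3 was at 120, 107 and 121 and at 69.1, 83.5 and 69.2 (-0.65 ± 0.24, adjusted p = 0.0454, limma). Its base partner psmc1b was at 38.8, 43.8 and 55.7 and at 31.8, 29.2 and 21.2 (-0.73 ± 0.27, adjusted p = 0.0457, limma). None of the 3 pairs of groups overlapped. The calls of psmc3, psmc1b and psmc1a were lost in 7, 8 and 1 of 13 alternatives, and the count fell to 0 without wildtype water replicate 2 and to 1 without wildtype replicate 1 or 3 or knockout replicate 1 or 2. The liver and pancreas markers were lower in the knockout at this stage (summed 157 to 162 against 680 to 795), as were the epidermis markers (3729 to 4502 against 5111 to 5223), the leukocyte markers (74.1 to 91.1 against 97.1 to 101), lyz among them, sqstm1 (-1.99 ± 0.22) and nfe2l2a (-0.91 ± 0.20), and the part of cell makeup in the 3 calls was not tested. These comparisons share the knockout water libraries with the tBOOH comparison, in which sqstm1 and nfe2l2a were higher.

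The strain difference in water uses separate libraries at each stage, and 5 of the 39 members tested at all 3 stages had all 3 knockout pools below all 3 wildtype pools each time: psma6a, psma8, psmc3, psmd2 and psmd8. Of all 6177 genes tested at all 3 stages 2.02% did so, and 3.08% were above in the same way, as was no member. The PSMB10 row in capitals, which the rule leaves out, was above in the knockout without overlap at each stage. It was at 32.3 ± 3.34 against 16.7 ± 3.35 at 2 hpf, 31.9 ± 5.09 against 9.29 ± 6.18 at 48 hpf and 26.2 ± 8.28 against 9.93 ± 1.16 at 96 hpf. The alpha gene psma8, whose mammalian namesake is enriched in testis, was at 123, 115 and 111 against 73.9, 83.8 and 49.6 at 2 hpf, at 143, 175 and 150 against 92.5, 129 and 110 at 48 hpf, and at 96.4, 95.4 and 97.5 against 72.4, 83.5 and 68.0 at 96 hpf. It was called at 2 hpf only. The 6 germ cell markers summed to at most 22.2 in water pools. At 2 hpf, where psma8 was called, their sum was lower in the knockout without overlap (8.20 to 13.4 against 14.5 to 22.2), and at 48 and 96 hpf it was at most 8.92. Their part in the psma8 values was not tested. The ATPase psmc3 was at 117 ± 13.9 against 83.3 ± 6.31 at 2 hpf, at 195 ± 4.90 against 127 ± 43.1 at 48 hpf and at 116 ± 7.68 against 74.0 ± 8.31 at 96 hpf, and it was called at 2 and 96 hpf. The scaffold gene psmd2 was at 22.2 ± 1.79 against 8.25 ± 4.86, 38.3 ± 4.96 against 14.9 ± 11.3 and 25.5 ± 9.68 against 14.1 ± 4.57. The PSMD2 row in capitals was below in the knockout at 48 hpf (46.5 ± 13.4 against 87.2 ± 17.3) and 96 hpf (31.6 ± 8.91 against 50.0 ± 2.68) without overlap, and not at 2 hpf. The lid gene psmd8 was at 61.3 ± 6.30 against 49.3 ± 5.25, 98.0 ± 13.8 against 64.6 ± 7.05 and 47.9 ± 10.7 against 34.7 ± 2.14, and was called at no stage. Strain background and nfe2 genotype cannot be told apart in any of these values.

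**Figure D5:**
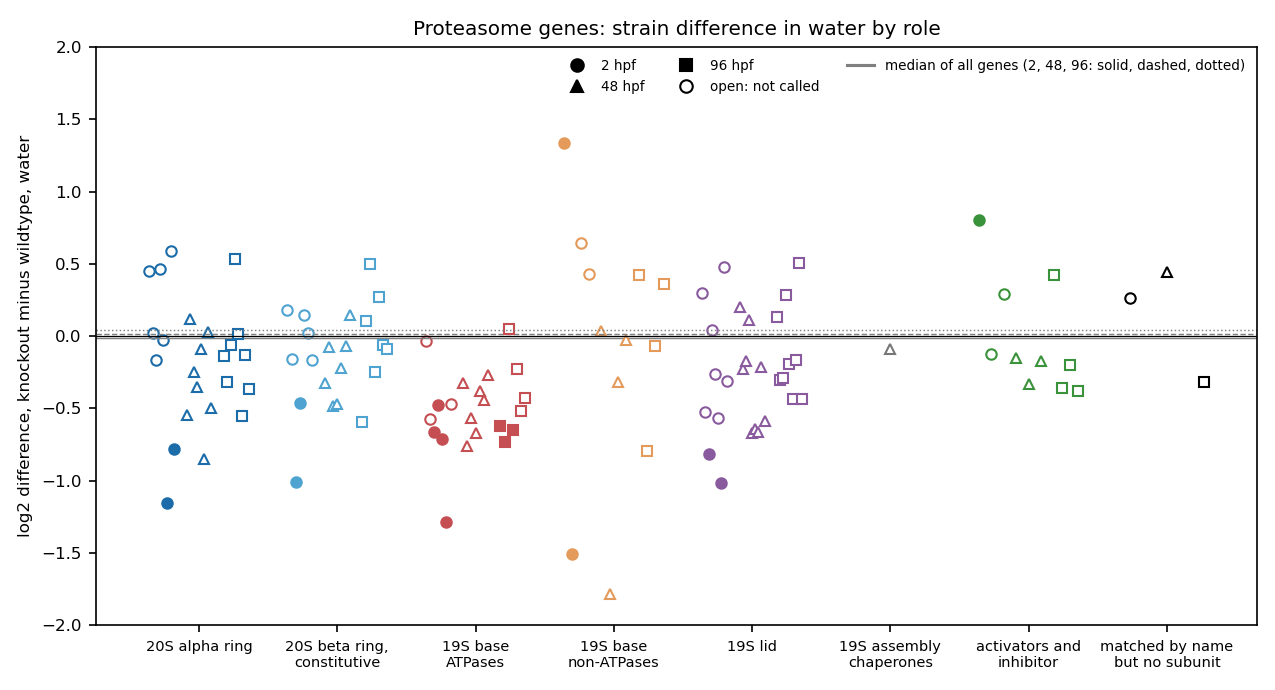
Log2 difference between knockout and wildtype in water (y axis) for each tested member, grouped by role (x axis), at 2 hpf (circles), 48 hpf (triangles) and 96 hpf (squares), filled where called. At 2 hpf 11 members were lower and 2 higher, and at 96 hpf 3 ATPases were lower.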

How the data were processed

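The authors deposited one table of normalised gene counts for the 54 libraries, a signal equal to read counts divided by DESeq2 size factors. Per the submitters' processing notes, reads were checked with FastQC 0.11.4, aligned to GRCz10 with TopHat2 2.0.14 and Bowtie2 2.2.5, handled with SAMtools 0.1.19, and counted with HTSeq, whose version and strand setting no source used here states; DESeq2 1.10.1 under R 3.2.3 gave the size factors. Dividing each library by its smallest step gave whole reads for 100% of values within 0.01. In 3 libraries the step was near 1.

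Members and lists were chosen with earlier results of these data known. The test was limma 3.58.1 (R 4.3.3, trend) on log2(value + 1), so fold changes of low genes are understated. Genes needed a value of 10 in 3 libraries. Oxidant and strain comparisons were fitted on the 18 libraries of a stage (7783, 9725 and 11436 genes), steps between stages on all 54 (13205 genes), with Benjamini-Hochberg adjustment over all genes and calls at adjusted p under 0.05. Named genes with pool values are the 4 called members with the smallest p in each comparison, or, with none called, the member with the smallest p, and members whose water pools lay apart between the strains at all stages; the rest were chosen once values had been seen. Each result was recomputed with a pseudocount of 5, no filter, TMM factors, a replicate block, the compared groups alone, edgeR 4.0.16 and DESeq2 1.42.0 on recovered reads, and each library left out. The statistics were tested on simulated data in which all groups shared the same spread for a gene. Those data cannot show how the tests behave where groups differ in spread, as they do here. Every printed SD is over 3 pools, SEs are limma's, and the read totals limit the precision of low genes. Gene names and overlaps came from RefSeq (GRCz12tu), in which 50 of 51 members were found by symbol.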

Additional observations from a re-analysis of the deposited data

How the results depend on the processing

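Over all alternatives, left-out libraries included, no named member changed sign: 25 values gained a call, 219 lost one and 1336 kept their side of the threshold. Of the median log2 changes over members, 24 values moved and 489 did not, and of the median levels 3 moved, with TMM factors. Among them, TMM factors and edgeR gave -0.83 and -0.84 for the wildtype and -0.69 and -0.71 for the knockout step from 48 to 96 hpf, and 0.27 and 0.26 for the wildtype step from 2 to 48 hpf. The moved levels were 42.6 for wildtype water at 2 hpf, 31.2 for wildtype diquat and 29.1 for knockout tBOOH at 96 hpf. Counts of members called that moved by over 1.5 times were as follows, and the cause was not tested. For wildtype tBOOH at 2 hpf (0 called) the count was 1 with a pseudocount of 5 or TMM factors, 2 with edgeR or DESeq2, and 5 with the compared groups alone. For knockout diquat at 2 hpf (3 called) it was 0 without a filter, with TMM factors, with the compared groups alone and with edgeR. The strain difference in the tBOOH response at 2 hpf (0) gave 1 with DESeq2, and the strain difference in water at 48 hpf (0) gave 1 with DESeq2 or a pseudocount of 5. Wildtype tBOOH at 96 hpf (1) gave 4 with the compared groups alone. The strain difference in water at 96 hpf (3) gave 1 without a filter, 8 with the compared groups alone and 5 with edgeR. The knockout step from 2 to 48 hpf (16) gave 9 with the compared groups alone. The knockout step from 48 to 96 hpf (15) gave 25 with TMM factors and 27 with edgeR; TMM factors moved the median of all genes there from 0.15 to 0 on the log2 scale, and in the wildtype step from 0.20 to 0.08. Of the added comparisons, the wildtype tBOOH response of 48 against 2 hpf gave 1 with the compared groups alone and 2 with DESeq2, and those of 96 against 48 hpf gave 1 with a pseudocount of 5 in wildtype and 1 in the knockout.

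With the replicate number as a block the counts were 2 for wildtype tBOOH at 2 hpf, 1 for the strain difference in the tBOOH response at 2 hpf, 8 and 16 for the wildtype steps and 7 and 9 for the knockout steps. The numbers share only a label: the mean correlation of deviations between same-numbered libraries was 0.0377, -0.00964 and -0.000254 at 2, 48 and 96 hpf, and 11, 4 and 8 of 18 libraries correlated best with their own number.

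Leaving out 1 library at a time, counts ran from 0 to 5 for wildtype tBOOH at 2 hpf (5 without tBOOH replicate 1), 0 to 4 for knockout diquat at 2 hpf, 7 to 16, 0 to 6 and 0 to 3 for the strain difference in water at 2, 48 and 96 hpf, and 2 to 3 for knockout tBOOH at 96 hpf. They ran from 0 to 1 for the strain differences in response at 2 hpf, for knockout tBOOH at 48 hpf, for the wildtype tBOOH responses between stages and for the knockout diquat response of 48 against 2 hpf. The wildtype steps ran from 11 to 14 and 21 to 23 and the knockout steps from 10 to 16 and 10 to 14, the lowest of the former without knockout water replicate 2 of 48 hpf. Every other count stayed where it was. With a median of 0.772 M reads, members below a value of about 10 were not tested. The promoter comparison that had been planned was not run, since no promoter sequences were used here.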
